A study of Mus musculus with 6 samples.

Results

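Cadherins and protocadherins were followed in retinas of rd10 mice, a model of inherited rod loss, and of wild-type mice. Members were the genes of the count table whose symbol starts with Cdh and a digit or with Pcdh, leaving out Cdh23 and Pcdh15. This gave 92 of the 24062 genes, of which 33 lie outside the protocadherin gene clusters and 59 belong to the Pcdha, Pcdhb and Pcdhg clusters, which were kept apart. A count filter left 85 members for testing, 29 outside the clusters and 56 within them.

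RNA was sequenced from whole retina at postnatal day 30, with 2 frozen retinas in each sample and 3 samples in each group. The control group was wild-type C57Bl6/J (WT). The other group was rd10, a strain with a missense change in Pde6b, the gene of the rod phosphodiesterase beta subunit, so that the Pde6b count does not check the labels. One protocol is given for both groups, and no treatment is named for either. Nothing in the labels ties the samples of a group to separate animals. The p-values therefore measure the spread between these samples, which may be technical. In bulk tissue, fewer cells of a type and less RNA per cell cannot be told apart.

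Classical cadherins bind their own kind on neighbouring cells through calcium-dependent extracellular repeats and are tied to actin by catenins. In the retina they hold the adherens junctions of the outer limiting membrane, where Müller glia meet photoreceptors, and mark particular types of neurons. Clustered protocadherins give each neuron a combination of surface isoforms and are known for keeping the branches of one neuron apart. Genes of the Pcdha and Pcdhg clusters join a variable first exon to shared constant exons, whereas each Pcdhb gene is a single exon of its own.

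The WT libraries held between 13573035 and 15818918 counts each, the rd10 libraries between 10923556 and 12171088. WT-1 and Rd10-4 stood apart from the rest in base composition. The mean log2 level of the 10% of genes richest in GC, minus that of the 10% poorest, was 0.70 in WT-1 and 0.60 in Rd10-4, against -0.73 to -0.13 in the other 4 libraries. All 8 tested rod markers were lower in rd10, with a summed level of 86513 to 100120 CPM in WT and 17396 to 25676 in rd10. CPM are counts relative to a library size scaled by trimmed mean of M-values (TMM), on the usual per-million basis. No defining marker of any retinal cell type list was at 0 in all libraries.

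Among the unclustered members, Cdh2 and Cdh13 rose in rd10 retinas and no tested member fell. Cdh2 went up 1.55-fold and Cdh13 2.29-fold, both under the threshold of 0.05 for the adjusted p in edgeR's quasi-likelihood test, adjusted over all genes tested. That is 2 of 29 tested members, or 6.9%, close to the 7.12% of all 13905 tested genes that were higher. For falls the count was 0 of 29, against 7.32% of all genes. At an unadjusted p under 0.05 it was also 0, against 2221 of the 13905 tested genes. DESeq2 and limma voom called no falls among the 29 either. Of their 2437 and 2030 calls over all genes, 51.0% and 50.9% were higher. The log2 fold change of rd10 over WT was positive for 25 of the 29 and had a median of 0.28, compared with 46.2% of all tested genes and a median of -0.04. These directions depended on the scaling, since 29 of 29 were positive with library size alone and 14 of 29 with factors taken from bipolar, amacrine and ganglion cell markers (inner neuron scaling). Relative to TMM, library size alone moved the median of all genes by 0.24 and inner neuron scaling by -0.28 on the log2 scale. For 8 of the 29 the 3 rd10 libraries all lay above the 3 WT libraries, which is 27.6%, against 17.1% of all tested genes. For 35.7% of all tested genes the groups lay apart in one direction or the other.

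**Figure D1:**
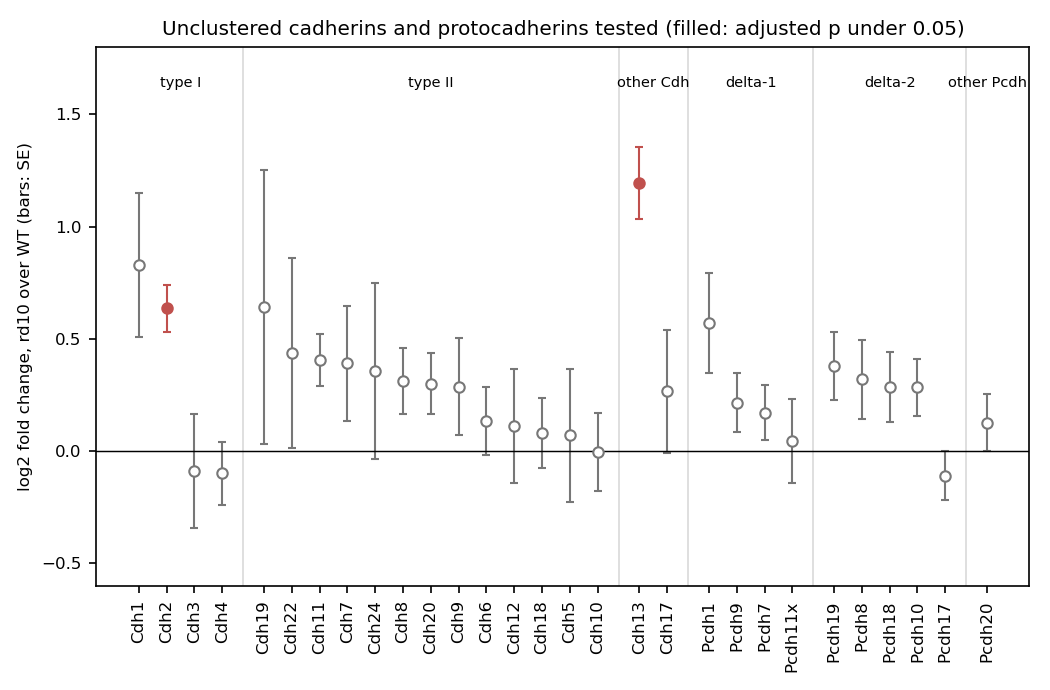
Log2 fold change of rd10 over WT (y axis, bars are SE, n = 3 libraries per group) for the 29 tested unclustered members, ordered by family along the x axis. Filled points had an edgeR adjusted p under 0.05, and only Cdh2 and Cdh13 are filled; the points below 0 are Cdh3, Cdh4, Cdh10 and Pcdh17.

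Cdh2 encodes N-cadherin, the classical type I cadherin of neural tissue and of the junctions between Müller glia and photoreceptors. On GRCm38 it lies on chromosome 18 from 16588877 to 16809246. It had 208, 232 and 240 CPM in WT-1, WT-4 and WT-23, and 351, 351 and 353 CPM in Rd10-3, Rd10-4 and Rd10-5. The rd10 libraries were nearly equal to each other and all were above the WT libraries. The means were 227 ± 16.8 and 352 ± 1.2 CPM (SD, n = 3 per group). On the log2 scale the rise was 0.64 ± 0.10 (SE), with an edgeR adjusted p of 0.00587. Of 19 alternative analyses, 18 kept the call, and inner neuron scaling ended it (0.35, adjusted p = 0.0535).

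Of 10 Müller cell markers 8 rose as well, and their summed level went from 8163 to 9277 CPM in WT to 12865 to 15856 in rd10. Set against that sum, Cdh2 came to 2.24%, 2.72% and 2.94% in WT and 2.51%, 2.21% and 2.75% in rd10, so the groups overlapped. Set against the summed inner neuron markers, it came to 4.40%, 5.47% and 5.87% in WT and 6.64%, 6.58% and 6.89% in rd10, and the groups did not overlap. Markers within the Müller sum changed unequally between WT and rd10. Mean Clu went from 996 to 3293 CPM and mean Apoe from 438 to 1261 CPM. Rlbp1 and Glul, which were not called, went up 1.13-fold and 1.22-fold. The share of Cdh2 in the sum therefore depends on the markers chosen. The part of Müller cell content in the rise of Cdh2 was not tested.

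Cdh13 encodes T-cadherin, which is held in the membrane by a lipid anchor, has no cytoplasmic tail for catenins and binds adiponectin. It lies on chromosome 8 from 118283733 to 119324921, plus strand. The WT counts were 243, 245 and 207, and those of rd10 were 529, 473 and 468, which is 19.9, 17.1 and 14.0 CPM against 40.6, 40.3 and 35.6 CPM. The lowest rd10 library stood well above the highest WT library. The mean was 17.0 ± 2.9 CPM in WT and 38.8 ± 2.8 CPM in rd10 (SD, n = 3 per group). On the log2 scale the rise was 1.19 ± 0.16 (SE), with an edgeR adjusted p of 0.0024. The call held in all 19 alternatives, with log2 fold changes from 0.91 to 1.44.

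Cdh13 was also higher relative to the marker sums, a difference that was not tested. As a share of the Müller sum it was 0.214%, 0.200% and 0.172% in WT and 0.290%, 0.254% and 0.277% in rd10. As a share of the endothelial sum it was 4.62%, 3.51% and 2.95% in WT and 5.19%, 5.30% and 5.02% in rd10. In neither ratio did the groups overlap. Of the 8 endothelial markers 1 rose, the VEGF receptor gene Kdr, and the sum of the list went from 430 to 486 CPM in WT to 709 to 782 in rd10. Most of that sum was Kdr itself, with 257, 309 and 305 CPM in WT and 597, 540 and 517 CPM in rd10. The median log2 fold change of the endothelial list was -0.01.

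**Figure D2:**
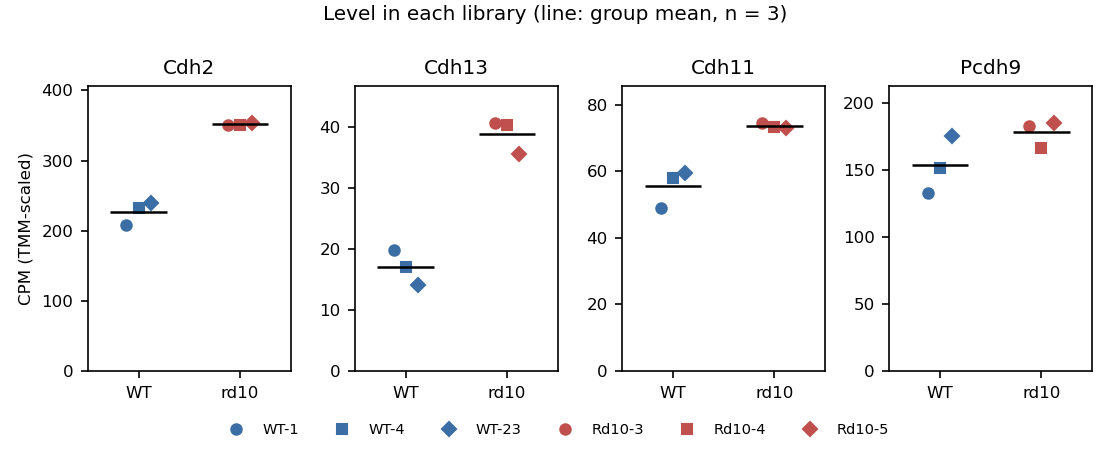
Level in CPM (y axis, from 0) of Cdh2, Cdh13, Cdh11 and Pcdh9 in each of the 6 libraries, with the line at the group mean. For Cdh2, Cdh13 and Cdh11 all rd10 points lie above all WT points, whereas for Pcdh9 WT-23 at 176 CPM lies above Rd10-4 at 166 CPM.

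The other type I cadherins did not pass the test. Cdh1, the epithelial E-cadherin gene, was low, with 1.55, 0.906 and 1.29 CPM in WT and 1.69, 2.04 and 2.89 CPM in rd10. The groups did not overlap, and the log2 fold change was 0.83 ± 0.32 (edgeR adjusted p = 0.129). Cdh4, the gene of R-cadherin, first found in retina, had 62.6, 58.9 and 50.3 CPM in WT and 49.2, 60.7 and 50.4 CPM in rd10. These values overlapped (-0.10 ± 0.14, edgeR adjusted p = 0.676). Cdh3, the P-cadherin gene, which pigment epithelium expresses, had -0.09 ± 0.25, and 3 of 9 tested pigment epithelium markers were lower in rd10. The muscle cadherin gene Cdh15 had at most 8 counts in a library and was not tested.

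None of the 13 type II cadherins was called by edgeR, against 7.12% of all genes higher and 7.32% lower. Limma voom called none either, against 2030 of 13905 genes. At an unadjusted p under 0.05 the count was 1 (7.69%, against 30.1% of all genes). Their log2 fold changes were positive in 12 of 13, with a median of 0.30. The member with an unadjusted p under 0.05 was Cdh11, a cadherin known from mesenchymal cells, which missed the adjusted threshold narrowly and was called by DESeq2 (adjusted p = 0.0273). It had 49.1, 58.0 and 59.3 CPM in WT and 74.4, 73.2 and 72.9 CPM in rd10. All rd10 libraries were higher, with a log2 fold change of 0.41 ± 0.12 (edgeR adjusted p = 0.0542, from 0.000911 to 0.514 over the alternatives). As a share of the Müller sum, Cdh11 was 0.529%, 0.681% and 0.727% in WT and 0.532%, 0.462% and 0.567% in rd10, which overlapped.

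Cdh8 and Cdh9 mark types of bipolar cells, the interneurons between photoreceptors and ganglion cells. Cdh8 had 34.8, 45.5 and 36.6 CPM in WT and 47.4, 44.1 and 53.3 CPM in rd10, and Cdh9 4.99, 4.88 and 7.26 CPM against 7.83, 6.39 and 6.70 CPM. Both overlapped between groups, with log2 fold changes of 0.31 ± 0.15 and 0.29 ± 0.22 (edgeR adjusted p = 0.197 and 0.417). Of the 8 bipolar cell markers 3 were higher in rd10. Cdh6, which marks some ganglion cells, had 0.13 ± 0.15 on the log2 scale.

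Cdh5, the gene of the VE-cadherin that seals endothelial junctions, averaged 9.07 ± 3.56 CPM in WT and 9.49 ± 1.59 CPM in rd10 (SD, n = 3 per group). WT-1 had 12.7 CPM, the highest of the 6 libraries, and WT-23 had 5.56, the lowest. The log2 fold change was 0.07 ± 0.30 (edgeR adjusted p = 0.898). The 8 endothelial markers had a median of -0.01, and only 1 of them, Kdr, was called higher. Cdh22 and Cdh24, named after their values were seen, have GC-rich transcripts (62.3% and 61.0%) and varied with the libraries that stood apart. WT counts of Cdh22 were 257, 131 and 97, and rd10 counts were 190, 265 and 162, highest in WT-1 and Rd10-4 of their groups. WT counts of Cdh24 were 175, 86 and 77, and rd10 counts were 114, 167 and 125, highest in the same pair of libraries. Without those libraries, a choice made after seeing the data, 5 of 29 unclustered members were called, all higher (Cdh2, Cdh13, Cdh22, Cdh24 and Pcdh1), and leaving out WT-1 alone called the same 5. Calls over all genes went up as well, from 2008 of 13905 to 2696 of 14064 without the pair and 3214 of 14116 without WT-1. Of these calls 48.3% were higher in either setting.

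Delta protocadherins are unclustered and signal through conserved motifs in their tails, and in these libraries none of the 9 tested passed the test, against 14.4% of all genes called in either direction. At an unadjusted p under 0.05 the count was 1 of 4 in the delta-1 group and 1 of 5 in the delta-2 group. These are 25% and 20%, below the 30.1% of all genes. DESeq2 and limma voom called none, against 2437 and 2030 of 13905 genes. Among delta-1 members, Pcdh9 had 133, 151 and 176 CPM in WT and 183, 166 and 185 in rd10 (0.22 ± 0.13, edgeR adjusted p = 0.305). Pcdh7, the NF-protocadherin gene, had 86.3, 92.6 and 107 CPM in WT and 115, 101 and 106 CPM in rd10 (0.17 ± 0.12). In both genes the highest WT library, WT-23, lay within the rd10 range. Pcdh1, named after its values were seen, had 38.1, 29.7 and 25.0 CPM in WT and 37.3, 60.0 and 40.5 in rd10, with a log2 fold change of 0.57 ± 0.22 (edgeR adjusted p = 0.131).

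Of the delta-2 members, 3 of 5 had all rd10 libraries above all WT libraries, as did 17.1% of all tested genes. Pcdh10, the OL-protocadherin gene known for roles in axon growth, had 80.3, 86.5 and 102 CPM in WT and 117, 107 and 103 in rd10 (0.28 ± 0.13, edgeR adjusted p = 0.178). Pcdh19, an X-linked gene of epilepsy, had 29.8, 36.7 and 42.2 CPM in WT and 49.2, 44.7 and 47.6 in rd10 (0.38 ± 0.15, edgeR adjusted p = 0.133). Pcdh17 went the other way, with 49.5, 52.8 and 54.2 CPM in WT and 46.0, 48.8 and 50.1 in rd10. Its groups overlapped (-0.11 ± 0.11, edgeR adjusted p = 0.539), and with inner neuron scaling it passed the test as lower (-0.39, adjusted p = 0.0423).

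Pcdh12, a protocadherin gene of endothelial cells, failed the filter, since its WT counts were 13, 10 and 6 and its rd10 counts 0, 1 and 5. All rd10 libraries were below all WT libraries, and in a fit without the filter it was not called (-2.08 ± 0.80, edgeR adjusted p = 0.137). The other unclustered members that were not tested, Cdh16 and Cdh26, had at most 4 and 3 counts in a library.

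Levels of different genes were compared per kilobase of exon. In WT, Cdh2 stood highest at 28.1 ± 2.1 CPM per kilobase (SD, n = 3), then Pcdh9 at 22.6 ± 3.1. Their ranges overlapped across libraries, but within each WT library Cdh2 was the higher. It had 25.75, 28.7 and 29.8 in WT-1, WT-4 and WT-23, against 19.6, 22.3 and 25.9 for Pcdh9. Pcdh7 followed at 8.99 ± 1.01 and Cdh4 at 7.90 ± 0.87, below every library of Pcdh9 but not apart from each other. Cdh11, Cdh18, Pcdh10, Cdh20 and Cdh8 came next, from 6.23 down to 5.03, each overlapping its neighbour. Cdh13 ranked 21 of the 33 in WT at 1.51 ± 0.26 CPM per kilobase and 16 in rd10 at 3.46 ± 0.25.

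In the protocadherin clusters, which lie side by side on chromosome 18, 7 of 56 tested members rose, and all 7 were Pcdhb genes. They were Pcdhb4, Pcdhb5, Pcdhb7, Pcdhb10, Pcdhb12, Pcdhb17 and Pcdhb18, with log2 fold changes from 0.50 to 0.77 and edgeR adjusted p from 0.0156 to 0.0488. This is 33.3% of the 21 tested Pcdhb genes, against 7.12% of all genes. None fell, by edgeR at an adjusted or an unadjusted p under 0.05, by DESeq2 or by limma voom. Over all genes, edgeR had 7.32% lower at the adjusted level and 2221 of 13905 at the unadjusted level. Of the 2437 DESeq2 and 2030 limma voom calls over all genes, 51.0% and 50.9% were higher. Of the 21, 16 had all rd10 libraries above all WT libraries, or 76.2%, against 17.1% of all genes. All 21 log2 fold changes were positive with TMM, with a median of 0.50, and 18 of 21 were with inner neuron scaling, which left no call and a median of 0.21.

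**Figure D3:**
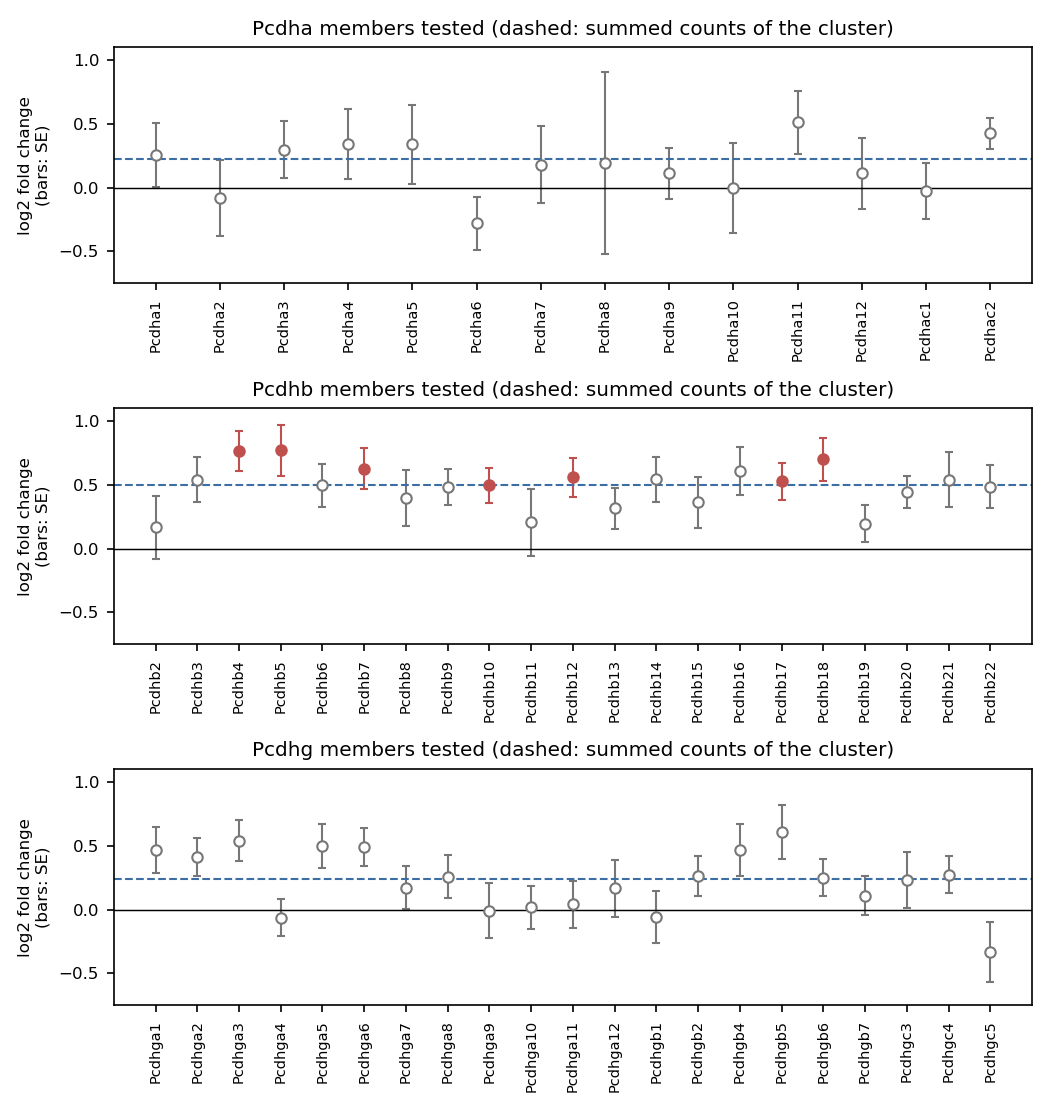
Log2 fold change of rd10 over WT (y axis, bars are SE, n = 3 libraries per group) for the tested members of the Pcdha (14), Pcdhb (21) and Pcdhg (21) clusters along the x axis, with the fold change of each cluster's summed counts as a dashed line. Filled points had an edgeR adjusted p under 0.05; the 7 filled points are all in the Pcdhb panel, where every point lies above 0.

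Pcdhb genes encode surface proteins that join the isoform mix of a neuron, and single members have few separately known roles. Pcdhb4 had 9.65, 11.1 and 11.3 CPM in WT and 19.2, 19.6 and 15.5 in rd10 (0.76 ± 0.16, edgeR adjusted p = 0.0156). Pcdhb18 had 12.5, 14.2 and 14.9 CPM in WT and 24.9, 18.1 and 24.4 in rd10 (0.70 ± 0.17, edgeR adjusted p = 0.0291). Pcdhb5 had 3.60, 3.76 and 5.15 CPM in WT and 6.98, 7.33 and 7.08 in rd10 (0.77 ± 0.20, edgeR adjusted p = 0.0402). In each of these genes the lowest rd10 library stood above the highest WT library.

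Pcdhb7 had 11.0, 14.0 and 14.4 CPM in WT and 22.3, 19.7 and 18.9 in rd10, and Pcdhb17 21.7, 25.3 and 28.9 against 33.7, 38.7 and 36.9. Pcdhb10 had 12.8, 11.8 and 13.5 CPM in WT and 19.1, 18.1 and 16.6 in rd10, and Pcdhb12 12.5, 11.2 and 13.0 against 20.3, 15.9 and 17.7. None of these 4 genes overlapped between groups. A further 7 Pcdhb genes had an edgeR adjusted p between 0.05 and 0.1, among them Pcdhb9 (0.49 ± 0.14, adjusted p = 0.0561) and Pcdhb16 (0.61 ± 0.19, adjusted p = 0.068). Over the 19 alternatives the 7 called genes kept their direction and were called in 9 to 15 of them each, with the highest adjusted p between 0.0863 (Pcdhb4) and 0.273 (Pcdhb10). Called Pcdhb genes numbered 0 without WT-4 or Rd10-3, 1 without Rd10-4 (Pcdhb18) and 1 without Rd10-5 (Pcdhb4), while calls over all genes fell from 2008 to 952, 885, 1227 and 1317. Without WT-1 and Rd10-4 together 6 of 21 Pcdhb genes were called, 3 of them among the 7, while calls over all genes rose from 2008 to 2696 of 14064.

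Pcdha and Pcdhg members were not called by edgeR. At an unadjusted p under 0.05 the counts were 1 of 14 Pcdha and 6 of 21 Pcdhg genes, all higher (7.14% and 28.6%), against 14.1% of all genes higher at that level. DESeq2 called 1 and 2, and limma voom none. Log2 fold changes were positive for 10 of 14 Pcdha genes (median 0.19) and 17 of 21 Pcdhg genes (median 0.25), but for 5 and 7 with inner neuron scaling. The rd10 libraries all lay above WT for 4 Pcdha genes (28.6%) and 10 Pcdhg genes (47.6%), against 17.1% of all genes. They all lay below WT for 1 Pcdha gene (7.14%) and 0 Pcdhg genes, against 18.6% of all genes. Counts of single members were less precise in Pcdha, where the median SE of the log2 fold change was 0.26, than in Pcdhb and Pcdhg, where it was 0.17 in each.

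The C-type genes at the end of the Pcdha and Pcdhg clusters, which neurons express more evenly than the other isoforms, had fold changes of either sign, and none was called. Pcdhac2 had 18.2, 19.0 and 20.4 CPM in WT and 26.7, 25.6 and 25.3 in rd10, apart between groups and just short of the threshold (0.43 ± 0.12, edgeR adjusted p = 0.0532). Pcdhac1 had 4.50, 4.53 and 4.20 CPM in WT and 4.68, 5.03 and 3.27 in rd10 (-0.03 ± 0.22). Pcdhgc3 had 79.6, 51.9 and 48.6 CPM in WT and 66.7, 85.5 and 59.6 in rd10, highest in WT-1 and Rd10-4 of their groups (0.23 ± 0.22, edgeR adjusted p = 0.513). Pcdhgc4, the isoform known for neuronal survival, had 51.0, 45.2 and 37.0 CPM in WT and 55.1, 56.4 and 49.5 in rd10 (0.27 ± 0.15). Pcdhgc5 was the C-type gene with the lowest fold change (-0.33 ± 0.24, edgeR adjusted p = 0.387).

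Summed over all genes of a cluster, Pcdhb rose 1.41-fold while the Pcdha and Pcdhg sums did not pass the test. A sum does not depend on how reads were split between members, apart from any reads left out as ambiguous, and the counting mode is not known. In the fit with clusters summed, 14.5% of the genes were called in either direction. The Pcdhb sum was 262, 276 and 308 CPM in WT and 407, 393 and 393 in rd10, with every rd10 library higher (0.50 ± 0.11, edgeR adjusted p = 0.018). The Pcdhg sum was 325, 303 and 265 CPM in WT and 348, 374 and 334 in rd10, also apart between groups (0.24 ± 0.12, edgeR adjusted p = 0.206). The Pcdha sum was 61.2, 56.5 and 58.4 CPM in WT and 70.9, 73.0 and 61.1 in rd10, where Rd10-5 fell within the WT range (0.22 ± 0.12, edgeR adjusted p = 0.247). The call of the Pcdhb sum ended when WT-4 was left out (edgeR adjusted p = 0.108), and likewise for Rd10-3 (0.1), Rd10-4 (0.059) and Rd10-5 (0.0597). Inner neuron scaling ended it too (0.21, adjusted p = 0.194), as did a test against a fold of 1.2 (adjusted p = 0.0797).

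**Figure D4:**
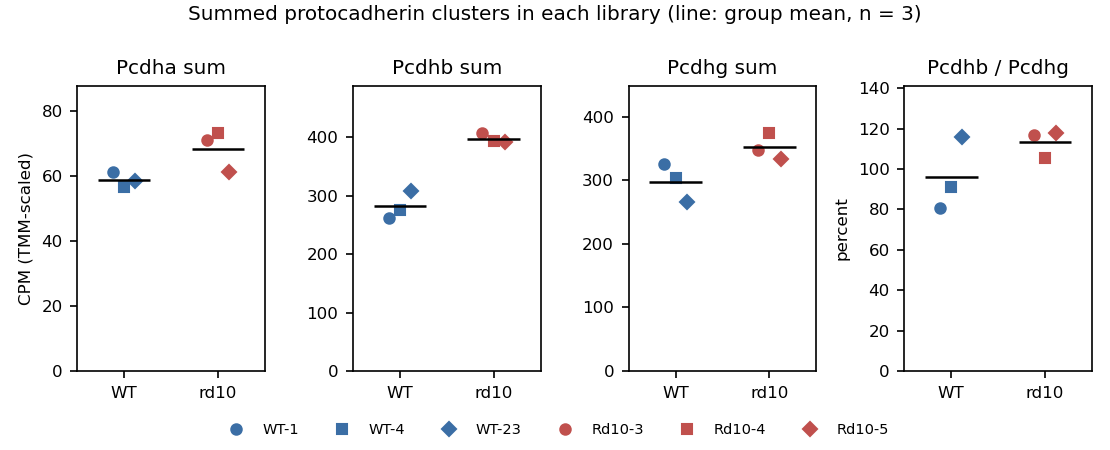
Summed level of the Pcdha, Pcdhb and Pcdhg clusters in CPM (y axes, from 0) and the Pcdhb sum as a percentage of the Pcdhg sum in each of the 6 libraries, with the line at the group mean. The Pcdhb sums of rd10 lie between 393 and 407 CPM, above the WT range of 262 to 308, while in the last panel WT-23 at 116% lies within the rd10 range.

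Whether the Pcdhb cluster changed more than the others was described by ratios within each library. No scaling factor alters these ratios, but they do not remove differences in GC. The Pcdhb sum was 80.5%, 90.9% and 116% of the Pcdhg sum in WT and 117%, 105% and 118% in rd10, and the groups overlapped through WT-23. It was 428%, 488% and 527% of the Pcdha sum in WT and 573%, 539% and 643% in rd10, without overlap. The median GC of the genes was 46.6% in Pcdhb, 47.6% in Pcdha and 52.4% in Pcdhg. Within each group, the ratio of Pcdhb to Pcdhg ran in reverse order of the libraries' GC-rich minus GC-poor level. With the GC trend removed, the log2 fold change was 0.59 for the Pcdhb sum and 0.23 for the Pcdhg sum. The differences between clusters were not tested. Against the summed inner neuron markers, the Pcdhb sum was 5.54%, 6.51% and 7.52% in WT and 7.69%, 7.37% and 7.66% in rd10, which overlapped. Of the inner neuron lists, 3 of 8 bipolar, 0 of 8 amacrine and 0 of 8 ganglion cell markers were called higher, and the part of inner neuron content in the Pcdhb rise was not tested.

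The clusters differ in how well reads can be told apart. In GENCODE transcripts, the median share of a gene's 50-base stretches found also in another gene of its cluster was 59.3% in Pcdha, 44.4% in Pcdhg and 4.26% in Pcdhb. Because of this, the counts of single Pcdha and Pcdhg members are uncertain, and the sums of these clusters may lack reads left out as ambiguous. Pcdha4-g was listed at 0 in all libraries, and Pcdhb1 and Pcdhgb8, with at most 14 and 15 counts, were not tested.

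**Figure D5:**
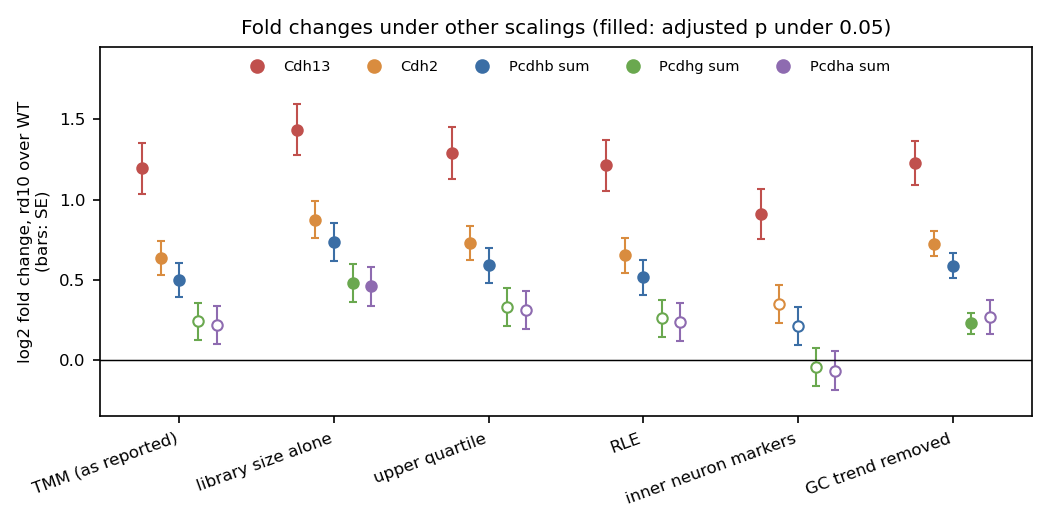
Log2 fold change of rd10 over WT (y axis, bars are SE, n = 3 libraries per group) for Cdh13, Cdh2 and the summed Pcdhb, Pcdhg and Pcdha clusters under 6 scalings (x axis), with filled points at an edgeR adjusted p under 0.05. Cdh13 is filled under all 6, Cdh2 and the Pcdhb sum under all but inner neuron scaling, where the Pcdhg and Pcdha sums fall to -0.04 and -0.06.

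The authors' deposited table for the same comparison lists 3427 genes, and every one of them has a p under 0.05, a fold of at least 1.2 in either direction and at least 2 FPKM in one of the groups. It holds 25 of the 92 members, where the count table has 24062 genes in all. All 25 are higher in rd10, against 42.3% of the genes in the authors' deposited table, and the other 67 members are not listed. By cluster, the authors' deposited table held 14 of 22 Pcdhb, 5 of 22 Pcdhg and 1 of 15 Pcdha genes and 5 of 33 unclustered members. Cdh13 went from 7.4 to 16.9 FPKM and Cdh2 from 48.8 to 75.7 FPKM in the authors' deposited table, where each group has 1 value. Of those 25 members, 8 were also called on the counts, where the threshold is on the adjusted p. The authors' p-values are not labelled as adjusted, so the thresholds are unlike. For Cdh11 the authors' p was 0.0083, beside an edgeR p on the counts of 0.00824 unadjusted and 0.0542 adjusted. Its log2 fold change was 0.404 in the authors' values and 0.406 on the counts.

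Catenins link classical cadherins to actin, and the main ones were not called. The beta-catenin gene Ctnnb1 had 554, 557 and 577 CPM in WT and 558, 548 and 551 in rd10, which overlapped (-0.03 ± 0.10, edgeR adjusted p = 0.878). Ctnna1, the alpha-catenin gene, had -0.05 ± 0.10, and with library size alone both had positive values (0.21 and 0.19). Ctnnd1, the p120-catenin gene that steadies cadherins at the membrane, had 0.33 ± 0.11 (edgeR adjusted p = 0.0789). Of 28 tested genes of catenins and adherens junctions, 2 rose and 2 fell (7.14% each way, near the background) with a median of 0.13. Ctnnal1, the alpha-catulin gene, rose by 0.68 ± 0.18 and Vcl, the vinculin gene, by 0.51 ± 0.14 (edgeR adjusted p = 0.0385 and 0.0466). Crb1 and Crb2, genes of the Crumbs polarity complex beside the outer limiting membrane junctions, fell. Crb2 went from 55.4, 40.4 and 47.5 CPM to 17.1, 24.8 and 22.1 CPM (-1.16 ± 0.18, edgeR adjusted p = 0.00491). Crb1 went from 383, 537 and 441 CPM to 306, 294 and 342 CPM (-0.53 ± 0.15, edgeR adjusted p = 0.0462), beside the fall of all rod markers. With 1 library left out, the calls of Ctnnal1, Vcl and Crb1 were each lost when WT-4 or any rd10 library was missing, and that of Vcl without WT-1 and that of Crb1 without WT-23 as well (highest adjusted p = 0.158, 0.196 and 0.21). Inner neuron scaling ended the calls of Ctnnal1 (0.39, adjusted p = 0.128) and Vcl (0.22, adjusted p = 0.267), and that of Vcl was lost without WT-1 and Rd10-4 together (adjusted p = 0.0848). The call of Crb1 was lost with RLE factors (adjusted p = 0.053), upper quartile factors (0.0876), library size alone (-0.29, adjusted p = 0.208) and no filter (0.0546). Against a fold of 1.2, none of Ctnnal1, Vcl and Crb1 passed (adjusted p = 0.0971, 0.147 and 0.138).

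Among 16 tested genes of the wider cadherin superfamily, 3 rose and 1 fell (18.8% and 6.25%, against 7.12% and 7.32% of all genes), with a median of 0.35. Fat1, a giant atypical cadherin gene, had 20.3, 23.8 and 21.8 CPM in WT and 44.7, 49.9 and 44.9 in rd10 (1.08 ± 0.13, edgeR adjusted p = 0.0014). Dsc2, a desmosomal cadherin gene, had WT counts of 24, 35 and 34 and rd10 counts of 87, 58 and 99 (1.51 ± 0.23, edgeR adjusted p = 0.0048). Ret, a receptor kinase gene with cadherin repeats, rose by 0.50 ± 0.13 (edgeR adjusted p = 0.0392), a call lost when any library but WT-1 was left out (highest adjusted p = 0.159). A test of Ret against a fold of 1.2 also ended the call (adjusted p = 0.134), as did scaling to inner neuron markers (0.22, adjusted p = 0.229). Cdhr1, the photoreceptor cadherin gene of the outer segment base, fell from 2275, 2437 and 2435 CPM to 946, 987 and 1209 CPM (-1.19 ± 0.13, edgeR adjusted p = 0.00108).

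Promoter choice in the protocadherin clusters depends on CTCF and cohesin, and 12 genes of these regulators and of known silencers were tested. All 12 had negative log2 fold changes with TMM and with inner neuron scaling, 10 of 12 with upper quartile factors and 9 of 12 with library size alone. Over all genes, 53.8% were negative with TMM. The median of the 12 was -0.34 with TMM, -0.11 with library size alone, -0.63 with inner neuron scaling, -0.21 with the GC trend removed and -0.17 without WT-23. The 1 gene that fell makes 8.33% of the list, near the 7.32% of all genes. Nipbl, the cohesin loader gene, had 192, 254 and 323 CPM in WT and 143, 123 and 170 in rd10 (-0.82 ± 0.20, edgeR adjusted p = 0.0329). The groups did not overlap, and the call was lost when WT-4, WT-23, Rd10-3 or Rd10-4 was missing (highest adjusted p = 0.129), when library size alone set the scale (Nipbl -0.58, adjusted p = 0.0825) and when tested for a fold over 1.2 (adjusted p = 0.0708). Ctcf itself averaged 168 ± 20.9 CPM in WT and 124 ± 9.9 CPM in rd10 (SD, n = 3 per group; -0.44 ± 0.13, edgeR adjusted p = 0.0557).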

How the data were processed

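Per the labels' protocols, strand-marked libraries were made from total RNA of frozen retinas after DNase treatment. The submitters' processing notes name mm10, HTSeq, edgeR and TopHat2 2.1.0, without roles, and no source used here gives the annotation or counting mode. Read counts per gene, whole and not normalized, were deposited for 6 libraries. The authors also deposited FPKM values, 1 per group, with log2 fold changes and p-values, which were used as they stand. The column numbers are not, as a set, the replicate numbers of the titles, so columns were assigned to groups by name.

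Counts were filtered with filterByExpr (minimum count 10), scaled by TMM and fitted with genotype as the single term by edgeR 4.0.16 (glmQLFit, robust) under R 4.3.3. Benjamini-Hochberg adjustment ran over 13905 genes, and the threshold was 0.05. Cluster sums replaced their members in a second fit. Errors are SE or SD of 3 libraries. For edgeR the SE was taken as the absolute log2 fold change over the square root of the test's F statistic. The script was tested on simulated data. Alternatives were DESeq2 1.42.0, limma 3.58.1 voom, RLE, upper quartile, library size and inner neuron factors, TMM without photoreceptor markers, other filters and thresholds, removal of a GC trend, and each library left out. Positions, exon lengths and GC came from GENCODE M21 (GRCm38), where 90 of 92 members matched. Depth limits members of few counts. Named members were those called, the most abundant, a fixed set of known genes and members not tested. Cdh10, Cdh18 and Cdh20 fell outside that rule, and other additions are marked where named. Members and lists were chosen with earlier results of these data known. No library was treated as a copy of another.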

Additional observations from a re-analysis of the deposited data

How the results depend on the processing

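The direction and call of Cdh13 held in all 19 alternatives. Called genes over all tested numbered 3043 with library size alone, 4388 with inner neuron scaling, 3050 at an adjusted p under 0.1 and 1285 against a fold of 1.2. They numbered 4910 with the GC trend removed, 2696 without WT-1 and Rd10-4 together and 885 to 3214 with 1 library left out. Of the calls, 49.3% were higher with TMM, 14.7% with inner neuron scaling, 81.2% with library size alone and 63.3% with upper quartile factors. Called unclustered members numbered 9 with library size alone, 11 with the GC trend removed, 5 without WT-1 and Rd10-4 and 2 to 5 with 1 library left out. Called clustered members numbered 14 by DESeq2, 26 with library size alone, 15 with upper quartile factors, 0 with inner neuron scaling, 19 at 0.1, 1 against 1.2-fold, 22 with the GC trend removed and 0 to 9 with 1 library left out. For catenins and junction genes the counts were 7 at 0.1, 11 with library size alone, 7 with upper quartile factors, 1 against 1.2-fold, 16 with the GC trend removed and 1 to 7 with 1 library left out; the wider superfamily had 9 with the GC trend removed. Cluster regulators had 3 by DESeq2, 0 with library size alone, 9 with inner neuron scaling, 3 at 0.1, 0 against 1.2-fold, 5 with the GC trend removed, 4 without WT-1 and Rd10-4 and 0 to 6 with 1 library left out. The summed Pcdhb log2 fold change was 0.21 with inner neuron scaling, 0.50 against 1.2-fold (adjusted p = 0.0797) and 0.45 to 0.59 with 1 library left out. The Pcdha sum was 0.46 with library size alone (past the threshold) and -0.064 with inner neuron scaling, and the Pcdhg sum 0.48 and -0.042, and 0.23 with the GC trend removed, where it passed.

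Signs over the alternatives were followed for the called, most abundant and fixed genes only. Other genes named here were not followed, such as Cdh10 (-0.0046 as reported, 0.025 with no filter). The followed genes whose sign turned were uncalled as reported. With inner neuron scaling they were Pcdh9 (-0.070), Pcdh7 (-0.12), Pcdh10 (-0.0025), Pcdha7 (-0.10), Pcdha12 (-0.17), Pcdhgc3 (-0.042), Pcdhgc4 (-0.0083), Pcdhgb6 (-0.037), Cdh5 (-0.21) and Cdh6 (-0.15). With library size alone they were Cdh4 (0.14), Pcdh17 (0.13), Cdh3 (0.15), Pcdhac1 (0.21), Ctnna1 (0.19) and Ctnnb1 (0.21). Upper quartile factors turned Cdh3 (0.0075), Pcdhac1 (0.066), Ctnna1 (0.049) and Ctnnb1 (0.068), with no filter Pcdhac1 (0.0018) and Ctnnb1 (0.0032), with the GC trend removed Pcdhac1 (0.043) and without WT-1 and Rd10-4 Pcdha12 (-0.28). With 1 library left out Pcdha7 ran from -0.0039 to 0.42, Pcdha12 from -0.23 to 0.32, Cdh5 from -0.17 to 0.38, Cdh3 from -0.29 to 0.088, Pcdhac1 from -0.15 to 0.14 and Ctnnb1 from -0.040 to 0.012. Inner neuron scaling sets the typical change of its own markers near 0 by construction, and fewer libraries give less precision; other causes were not tested. No paired analysis was possible because the column numbers are not, as a set, the replicate numbers of the titles, and the WT and rd10 columns share only the number 4.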
